A study of Mus musculus with 5 samples.

Results

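Within an autosomal genome that is mostly methylated at isolated CpGs, 2707 tiles of 1 kb held little or no methylation in blood stem and progenitor cells. They had few measured CpG positions and lay away from tiles with many. They were selected on measured values. A tile had at least 3 CpG positions with 10 or more reads in all 5 libraries and fewer than 30 positions listed in any library, and no tile with 30 or more listed positions lay within 2 tiles on either side. Among 24319 autosomal tiles with at least 3 such positions, 10713 met these conditions on density. The 2707 members were those whose methylation level, taken as the mean of the wild-type mean and the knock-in mean, was under 20%. A position is the cytosine of a CpG on 1 strand, and a level is the share of methylated reads among those called methylated or unmethylated, in percent. "CpG-dense" and "CpG-poor" here refer to the number of listed positions. The sequence was not analysed, so a CpG island with few listed positions would count as CpG-poor. "Distal" here means away from CpG-dense tiles and says nothing of the distance to genes, whose positions were not analysed here. Coordinates are in mouse build mm9.

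The cells were Lin-, Sca1+, Kit+ cells (LSK) of mouse bone marrow, a fraction that holds blood stem cells and early progenitors, from a 129Ola x C57Bl/6J background. The Idh1-R132H knock-in allele was present in 3 libraries, and 2 were wild-type. No age, sex, treatment or Cre driver is named in the labels, which also leave unsaid whether each library came from its own animal, so the spread between libraries may be technical. Methylation was read by extended reduced representation bisulfite sequencing, in which MspI cuts at CCGG, fragments are chosen by size, and bisulfite converts unmethylated cytosine so that it is read as T.

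In mammals most CpGs outside CpG islands are methylated. A CpG-poor stretch that is not methylated often marks a place where transcription factors are bound, such as an enhancer or a promoter without an island, and there the TET enzymes oxidise 5-methylcytosine, the first step of its removal. Idh1 encodes an isocitrate dehydrogenase whose R132H form produces 2-hydroxyglutarate, which can inhibit TET enzymes, and the comparison of genotypes asks whether methylation differs in mutant cells.

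The depth of the libraries set what could be seen. The tables listed 1208495, 697321 and 2028186 CpG positions for the 3 knock-in libraries, in order of replicate, against 447270 and 1131505 for the wild-type pair. The median member tile held 294, 129 and 673 reads in the knock-in libraries against 95 and 177 in wild-type. Reads are summed over positions, so a read that crosses several CpGs counts at each. Intervals and limits below therefore cover counting error only and are too narrow, as are those of any PCR reads without molecular identifiers. On chromosome X, which the rule leaves out, 1 library of each genotype stood apart: low distal tiles averaged 24.3% and 22.5% in the shallowest library of each genotype and 1.06% to 1.91% in the other 3.

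Methylation was absent or close to it in most members. In 1609 of the 2707 (59.4%) the level was under 1%, and in 532 (19.7%) not 1 methylated read was seen in any library. Those 532 tiles held a median of 1185 reads over the libraries together, and a count of 0 in so many allows a level of up to 0.253%. Every library was under 1% in 1164 members (43.0%) and under 20% in 2410 (89.0%). Since the rule used the level, these are descriptions of the tiles it kept.

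**Figure D1:**
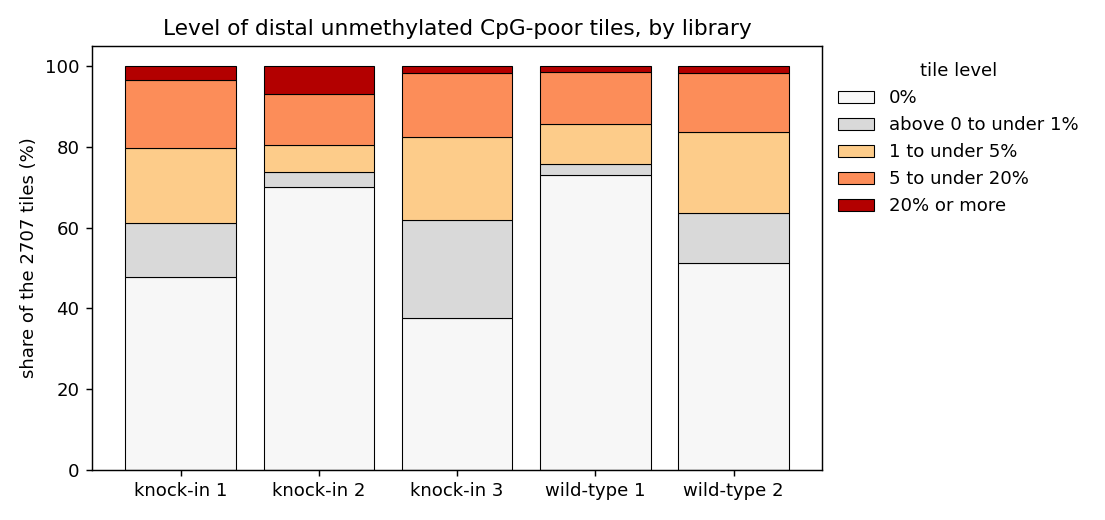
Share of the 2707 tiles (vertical axis, percent) in each class of methylation level, 1 stacked bar for each library. Tiles of 20% or more made up 6.87% of the bar of knock-in replicate 2, against 1.48% to 3.36% in the other 4 libraries.

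The plot of level classes by library shows that the libraries differed at both ends. No methylated read was found in 1290, 1893 and 1019 members for the knock-in libraries, in order of replicate, against 1976 and 1388 for the wild-type pair. These counts ran in the order of depth, with most tiles at 0 in the 2 shallowest libraries. With each position thinned to 10 reads they were 1689, 1990 and 1711 against 2068 and 1762, so the same 2 libraries still had the most. At the median number of reads of tiles at 0, such a count allows up to 0.486% in knock-in replicate 3 and up to 3.33% in wild-type replicate 1. At the other end 91, 186 and 46 members reached 20% in the knock-in libraries against 40 and 44 in wild-type. Knock-in replicate 2 had the most of these.

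How low the lowest tiles were can be set beside mitochondrial DNA, which carries little or no CpG methylation and is often used to gauge how much cytosine stays unconverted or is misread. Over 27 mitochondrial CpGs pooled reads gave 0.143% (95% Wilson interval 0.0923 to 0.22%), 0.0363% (0.0123 to 0.107%) and 0.0431% (0.0296 to 0.0627%) in the knock-in libraries. It was 0.198% (0.118 to 0.333%) and 0.0946% (0.0564 to 0.159%) in the wild-type libraries. Reads pooled over the 1609 members under 1% gave 0.347%, 0.162% and 0.235% in the knock-in libraries against 0.0876% and 0.179% in wild-type. Wild-type replicate 1 was thus below its own mitochondrial level at these tiles, with an interval of 0.0758 to 0.101%. The other 4 libraries were above theirs, and in none did the 2 intervals overlap. These tiles were chosen for a low level in the same reads, by a mean in which each wild-type library weighs more. The mitochondrial CpGs were not chosen by level, and the intervals are too narrow, so the order is a description only.

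The members were small windows. Their 16439 positions were split evenly between strands, 8328 forward and 8111 reverse. The first and last position of a tile lay a median of 50 bases apart, and in 2053 members (75.8%) they were under 100 bases apart, so a tile's level mostly describes a stretch far shorter than 1 kb. Neighbouring positions on a strand often came from the same reads: in 79.0% to 91.0% of 12565 such pairs, depending on the library, the coverages were within 10% of each other. Both strands were read in 1167 members (43.1%) and 1 strand in 1540 (56.9%).

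The positions within members were mostly low, as the rule, which used these same reads, all but required. A level under 1% was found at 11695 positions (71.1%), and 429 (2.61%) reached 20%. By the mean of the group means, every position was under 20% in 2425 members (89.6%), and 31 members held a position of 50% or more. Among the 31 was a tile on chromosome 1, chr1:173217000-173217999, whose CpG at 173217016 was at 90.5% to 100% in all libraries. Another 6 of its 11 CpGs were at 0% in every library, and the remaining 4 were at 100% in knock-in replicate 2 and at 0% elsewhere.

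The strands of a CpG can be compared where both were read. These are shared positions whose reads chose the tiles, so low levels on both strands are a description. At 1169 CpGs of members, forward and reverse cytosine were both under 20% in 92.6%, 89.9% and 96.8% of cases in the knock-in libraries against 92.6% and 96.6% in wild-type. Both were at 20% or more at 12, 23 and 14 CpGs and at 13 and 10. Only 1 of the 2 strands reached 20% at 74, 95 and 23 CpGs and at 74 and 30. These 1-sided CpGs were fewest in the deepest library and most frequent in knock-in replicate 2.

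Positions that the rule did not use were low as well. Each library listed further positions in the members that were missing from at least 1 other library, between 4424 in wild-type replicate 1 and 28088 in knock-in replicate 3. They averaged 4.73%, 4.69% and 4.76% in the knock-in libraries against 2.82% and 3.86% in wild-type. Tiles with at least 3 such positions numbered 1983, 1140, 2406, 745 and 2024 in the same order, and 92.3%, 92.0%, 93.4%, 96.0% and 94.6% of them were under 20%. Between 1 and 9 tiles in a library were at 80% or more at these positions. The low level thus held at positions other than those that chose the tile, at a somewhat higher mean than the 1.90% to 3.30% of the chosen positions. Such a position can be the other strand of a chosen CpG or lie on the same reads, and these cases were not separated.

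Flanking tiles were measured less often, and the answer depended on which. Over positions shared by all libraries, with 3 or more in a tile, the median level of CpG-poor neighbours was 0.55% and 0.357% at 1 tile on either side (255 and 258 tiles). At 2 tiles it was 8.84% and 17.7% (51 and 55 tiles), and 56.9% and 52.7% of these were under 20%. With each library's own positions, the median level of CpG-poor neighbours 1 tile away in knock-in replicate 3, the deepest library, was 2.97% toward lower coordinates (1019 tiles) and 3.38% toward higher ones (1017 tiles). At 2 tiles it was 73.2% (480 tiles) and 71.3% (484 tiles), and at 3 tiles 84.4% and 82.7%. The members themselves had a median of 0.719% in this library. More neighbours were measured this way, and their levels at 2 tiles were far higher than over shared positions. Neighbours that are themselves members, and so low by the rule, enter these medians. With members left out, the medians at 1 tile over shared positions were 51.7% and 52.8% (32 and 35 tiles). This in turn drops low neighbours, since a distal tile with 3 shared positions and a level under 20% is a member. By the own positions of knock-in replicate 3 they were 6.12% and 6.77% (796 and 794 tiles). In the shallowest library, wild-type replicate 1, the medians by its own positions with members kept were 0% at 1 tile on either side. At 2 tiles they were 16.7% and 22.4%, from 99 and 109 tiles.

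**Figure D2:**
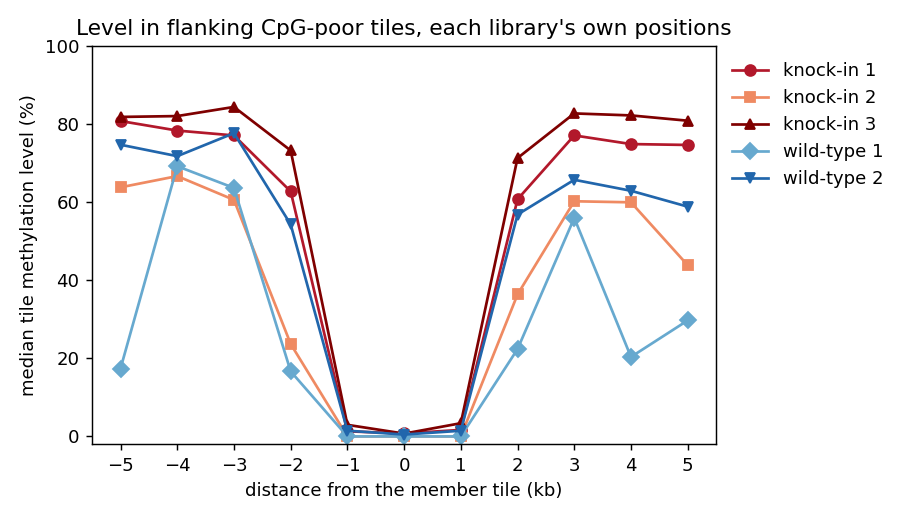
Median methylation level (percent) of tiles with fewer than 30 listed positions, against their distance from the member in kb, 1 line for each library by its own positions with at least 3 in a tile. In every library the level is lowest at 0 and 1 kb and higher from 2 kb outwards. Neighbours that are themselves members are included.

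Where both neighbours of a member were measured in knock-in replicate 3, 94 of 298 members (31.5%) had both under 20% and 26 (8.72%) had both at 50% or more. The other 178 were mixed. Members also joined each other: 2265 stood alone, 215 pairs were adjacent, and 4 runs held 3 tiles. The run on chromosome 13 at chr13:36826000-36828999 held 26 positions, at 5.14%, 9.06% and 6.23% in the knock-in libraries against 12.1% and 8.25% in wild-type, so that the groups overlapped. The run at chr11:69231000-69233999, with 19 positions, was at 2.33%, 0.634% and 0.266% against 0% and 0%. In the run of 2 tiles at chr16:38562000-38563999 no library exceeded 0.0941% over 33 positions, with up to 4238 reads in a library. The other runs of 3 tiles, on chromosomes 17 and 5, stayed between 0.796% and 8.55% in all libraries.

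The share of distal tiles that were members rose with CpG density. Of distal tiles with 3 to 9 listed positions, 447 of 5051 (8.85%) were members. The share was 26.5% (1042 of 3929) at 10 to 19 positions and 70.3% (1218 of 1733) at 20 to 29. Among members the share under 1% rose with density too, from 38.0% to 57.9% and 68.6%. Listed positions depend on fragment size and depth as well as on sequence, and their part in this was not tested.

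Members lay at a median of 31 kb from the nearest CpG-dense tile (quartiles 11 and 82 kb), against 48 kb for the 6822 distal tiles of 80% or more. Neighbouring tiles are not independent, and no test of this difference was made. Members made up 35.7% of distal tiles 3 to 5 kb from a dense tile, 32.9% at 6 to 10 kb, 26.6% at 11 to 50 kb and 20.8% beyond 50 kb. The median number of listed positions fell over the same classes, from 12 to 9. All 19 autosomes held members, from 80 on chromosome 18 to 251 on chromosome 7, and the share of distal tiles ranged from 20.2% on chromosome 12 to 30.9% on chromosome 7.

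The tiles with the most shared positions show a well-measured member. The tile chr14:31467000-31467999 had 20 positions, all that were listed, at 0%, 0.128% and 0% in the knock-in libraries against 0% and 0.111% in wild-type, from 304 to 3107 reads. In chr17:15714000-15714999, with 22 positions the best covered by number, levels were 1.90%, 2.95% and 1.48% against 1.52% and 0.795%. Both tiles had overlapping groups.

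Another tile of this kind, chr8:128422000-128422999, was higher than the other 7 of the 8 tiles with the most positions, in which no library exceeded 4.49%. Its 20 positions were at 9.24%, 9.30% and 7.95% in the knock-in libraries against 2.97% and 4.99% in wild-type (8.83 ± 0.762, SD, n = 3, and 3.98 ± 1.42, SD, n = 2). All knock-in libraries were above both wild-type libraries, by 2.96 points at the nearest. The unadjusted p of edgeR's quasi-likelihood test was 0.416.

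At the other end stood tiles with extreme coverage. The member chr8:3754000-3754999 had between 2628 and 32131 reads in a library over 6 positions, and chr16:91534000-91534999 between 3109 and 35121 over 4. Their levels were 12.1%, 17.0% and 15.8% against 13.2% and 19.1%, and 12.3%, 7.05% and 13.4% against 8.36% and 17.2%. In both the groups overlapped. Coverage so far above the median member is known from repeated sequence, and whether these tiles hold any was not tested.

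Some members lay far from any dense tile. On chromosome 14 the tiles at 4438000, 4518000 and 4752000 were 4212, 4132 and 3898 kb away. On chromosome 17 the adjacent tiles at 95233000 and 95234000 were 3746 and 3747 kb away, and the level was 0.474% in knock-in replicate 1 in the first and 0% in every other case. In the second of these tiles, chr17:95234000-95234999, a count of 0 allows up to 0.824% in knock-in replicate 3 and up to 10% in wild-type replicate 1, which had 30 reads.

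The limit of 20% cut through a continuous range. Just under it lay chr16:63856000-63856999 at 19.99%, chr17:3084000-3084999 at 19.98% and chr8:122223000-122223999 at 19.98%. Just over it lay chr5:102097000-102097999 at 20.01%, chr2:167805000-167805999 at 20.03% and chr15:77189000-77189999 at 20.1%. The first of the excluded tiles ranged from 7.59% to 31.1% between libraries.

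The mean level over members was higher in every knock-in library than in either wild-type library. It was 3.25%, 3.83% and 2.65% in the knock-in libraries (3.24 ± 0.594, SD, n = 3) and 2.07% and 2.45% in the wild-type libraries (2.26 ± 0.272, SD, n = 2). The groups did not overlap, and the means differed by 0.984 percentage points. No p is given for a score over chosen tiles. Over all 24319 tiles the same difference was 0.949 points. The median member differed by 0.0535 points and the median tile of all by 0.0790 points.

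In points, the difference was larger in members that were not near 0. The classes are cut on the level itself, so a low class leaves little room for a difference in points. Classed by level, the 1609 members under 1% had mean levels of 0.333%, 0.111% and 0.266% in the knock-in libraries against 0.0663% and 0.194% in wild-type, and the groups overlapped. The 578 members of 1 to 5% were at 3.21%, 3.14% and 2.66% against 1.92% and 2.37%, a difference of 0.858 points. The 259 members of 5 to 10% differed by 2.77 points and the 261 members of 10 to 20% by 4.89 points. In each of the 3 upper classes both wild-type libraries were below all knock-in libraries.

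**Figure D3:**
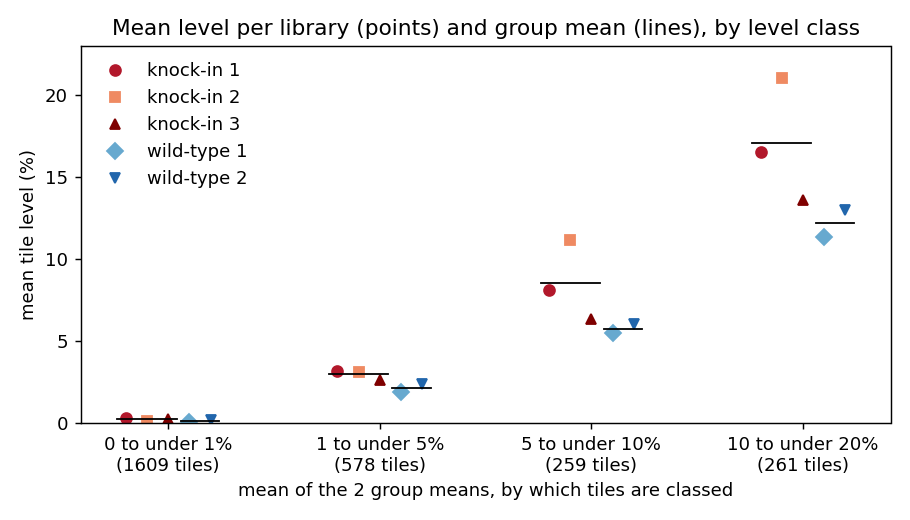
Mean tile level per library (points, percent) and group mean (lines) in 4 classes of the level by which tiles were chosen. The gap between genotypes in points widens with the class, and higher classes leave more room for it. Knock-in replicate 2 lies highest in the classes of 5 to 10% and 10 to 20%.

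Knock-in replicate 2 weighed most in the upper classes. In the 520 members of 5 to 20% the means were 12.3%, 16.1% and 9.998% in the knock-in libraries against 8.43% and 9.54% in wild-type. The difference was 3.84 points with all libraries and 2.19 points without knock-in replicate 2, and leaving out any other library gave 3.29 to 5.25 points. Over all members the difference without that library was 0.689 points. As the groups did not overlap there, leaving out 1 library could not turn the direction.

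The rule itself treats the genotypes unequally. Because it averages group means, each wild-type library has a weight of 25% and each knock-in library of 16.7%, so a tile that is high in 1 knock-in library is kept more easily than one high in 1 wild-type library. With the plain mean of the 5 libraries under 20%, 2694 tiles remained and the difference was 0.910 points. Over the 2410 members under 20% in every library it was 0.309 points, and with the limit set at 10% it was 0.566 points.

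Tiles high in a single library were mostly those of knock-in replicate 2. It was at 20% or more with the other 4 libraries under 10% in 54 members, against 7 for knock-in replicate 1, 1 for knock-in replicate 3, 9 for wild-type replicate 1 and 0 for wild-type replicate 2. After each position was thinned to 10 reads in every library the numbers were 13, 55 and 3 for the knock-in and 7 and 2 for the wild-type libraries, in order of replicate. The order of the libraries was thus similar at equal depth, with knock-in replicate 2 far above the rest.

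In both examples that follow, the CpGs of a tile were high together. At chr16:22844000-22844999 all 3 CpGs were at 80% in knock-in replicate 2, each with 15 reads, and the tile was at 0%, 2.70%, 0% and 3.31% in the remaining libraries (knock-in 1 and 3, wild-type 1 and 2). The Wilson interval of the 80% is 66.2 to 89.1%. At chr5:123220000-123220999 all 4 CpGs were at 75% with 12 reads each in knock-in replicate 2, against 0%, 5.88%, 0% and 0%, with an interval of 61.2 to 85.1%. Every shared CpG of a tile thus had the same level, from 12 or 15 reads. No source used here says whether duplicate reads were removed. The median such tile had 70.5 reads in knock-in replicate 2, against 129 over all members. The part of depth and of duplicate reads in these levels was not tested. These tiles were chosen after their values were seen.

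The other libraries had rarer cases of the same kind. Wild-type replicate 1 was at 36.4% in chr5:123128000-123128999, from 33 reads, where the others were between 0% and 6.30%. Knock-in replicate 1 was at 42.9% in chr17:73608000-73608999, from 98 reads, where the others were between 0% and 5.98%. The single case of knock-in replicate 3 was chr8:42101000-42101999, at 42.0% from 157 reads, with the others between 0% and 4.32%.

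Across the 2707 tiles the correlation of levels between libraries was highest for knock-in replicate 3 with wild-type replicate 2 (Pearson's r = 0.776) and lowest for knock-in replicate 2 with wild-type replicate 1 (r = 0.301). These are descriptions across tiles, which are not replicates. The highest value joined libraries of different genotype, and the lowest joined the 2 shallowest libraries.

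Tile by tile, no member passed the test. edgeR's quasi-likelihood test with Benjamini-Hochberg adjustment over all 24319 tiles called 0 members at 0.05, with an adjusted p of 1 for each, and 0 of all tiles (0%). At an unadjusted p under 0.05 it had 28 members higher in the knock-in (1.03%, beside 0.843% of all tiles) and 35 lower (1.29%, beside 0.748%). The higher share was near the background and the lower share above it, and none of these members passed the adjustment.

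Other tests also called 0 members after adjustment. At an unadjusted p under 0.05, limma on arcsine levels had 54 higher (1.99%, beside 2.96% of all tiles) and 41 lower (1.51%, beside 1.24%). After centring each library on its mean over all tiles it had 50 higher (1.85%, beside 2.57%) and 87 lower (3.21%, beside 2.17%). With the log2 ratio of the read counts it had 53 higher (1.96%, beside 2.55%) and 64 lower (2.36%, beside 1.41%). The balance between directions therefore turned with the method: of these 4 tests on all reads and libraries, limma on arcsine levels without centring was the one with more members higher. In edgeR it turned with the reads too, with 32 higher and 7 lower at 10 reads per position. The share of all tiles at that depth was not computed, so whether this turn was particular to members is unknown.

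Counted without a model, 170 members had all knock-in libraries above both wild-type libraries (6.28%, beside 8.98% of all tiles), and 81 had all below (2.99%, beside 3.61%). With group means at least 10 points apart, 54 were higher (1.99%, beside 2.37%) and 6 lower (0.222%, beside 0.621%). Both sets were among the 520 members of 5 to 20%, where a difference of 10 points has room. Of the 54, 22 had 3 to 9 listed positions, 20 had 10 to 19 and 12 had 20 to 29. Under 20% in every library, 10 were left of the 54 and 1 of the 6. Leaving out a library makes it easier for groups not to overlap. Without knock-in replicate 1, 2 or 3 the counts were 82, 49 and 102 higher (3.03%, 1.81% and 3.77% of members). Lower ones numbered 14, 5 and 18 (0.517%, 0.185% and 0.665%). Without wild-type replicate 1 or 2 the counts were 63 and 118 higher (2.33% and 4.36%) and 20 and 60 lower (0.739% and 2.22%). The shares of all tiles without 1 library were not computed, so these counts say nothing particular of members.

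Of the tiles with the widest space between the groups, chr19:41113000-41113999 was the clearest. Its levels were 26.7%, 26.3% and 31.2% in the knock-in libraries against 1.94% and 4.35% in wild-type (28.1 ± 2.72, SD, n = 3, and 3.14 ± 1.701, SD, n = 2). The groups were 21.9 points apart at the nearest libraries. The tile lay 144 kb from the nearest dense tile, and its 5 listed positions, the 4 CpGs between 41113767 and 41113853, were all shared. Every position was at 18.9% to 38.3% in every knock-in library and at 0% to 11.1% in the wild-type libraries, on both strands, from 17 to 143 reads. The unadjusted edgeR p was 0.0316 and the adjusted p 1. Without any 1 library the difference stayed between 23.4 and 26.1 points, and at 10 reads per position it was 19.3 points.

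**Figure D4:**
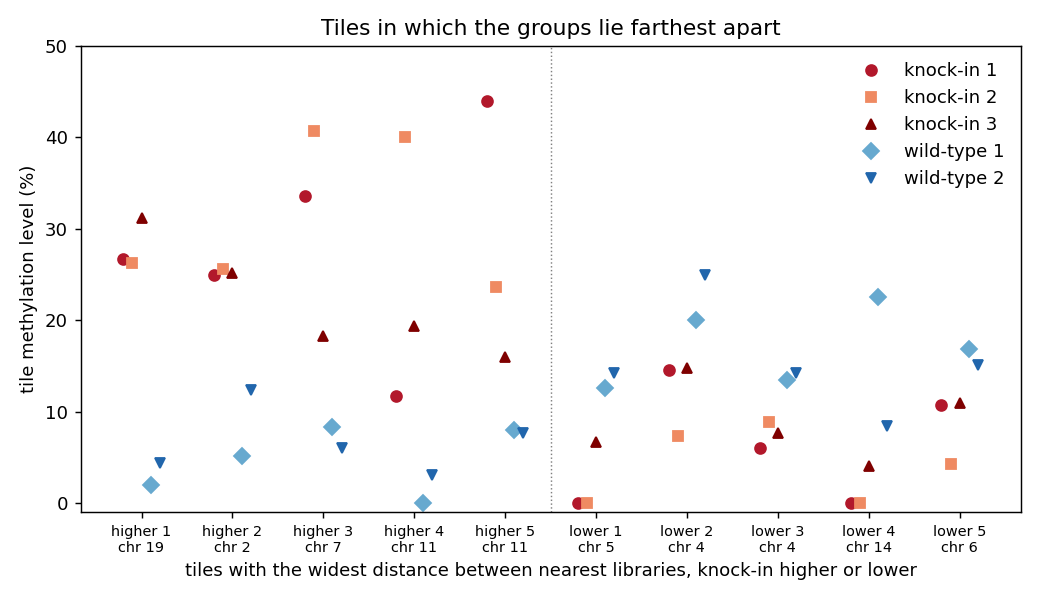
Methylation level (percent) of each library in the 5 members of widest separation with knock-in higher (left) and the 5 with knock-in lower (right), 1 point for each library. On the left the first tile, on chromosome 19, shows all 3 knock-in libraries between 26.3% and 31.2% and both wild-type libraries under 5%.

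The next was chr2:24261000-24261999, with 11 CpG positions and no others listed. Its levels were 25%, 25.7% and 25.2% in the knock-in libraries against 5.19% and 12.4% in wild-type (25.3 ± 0.339, SD, n = 3, and 8.81 ± 5.12, SD, n = 2). The near-equal knock-in levels hid differences within the tile. In knock-in replicate 2 the CpG at 24261303 was at 100% and those at 24261291 and 24261348 at 0%, whereas knock-in replicate 3 had 17.7%, 27.8% and 0% there. On the reverse strand the position 24261328 was at 50.0% in wild-type replicate 1, from 12 reads. The unadjusted edgeR p was 0.231.

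**Figure D5:**
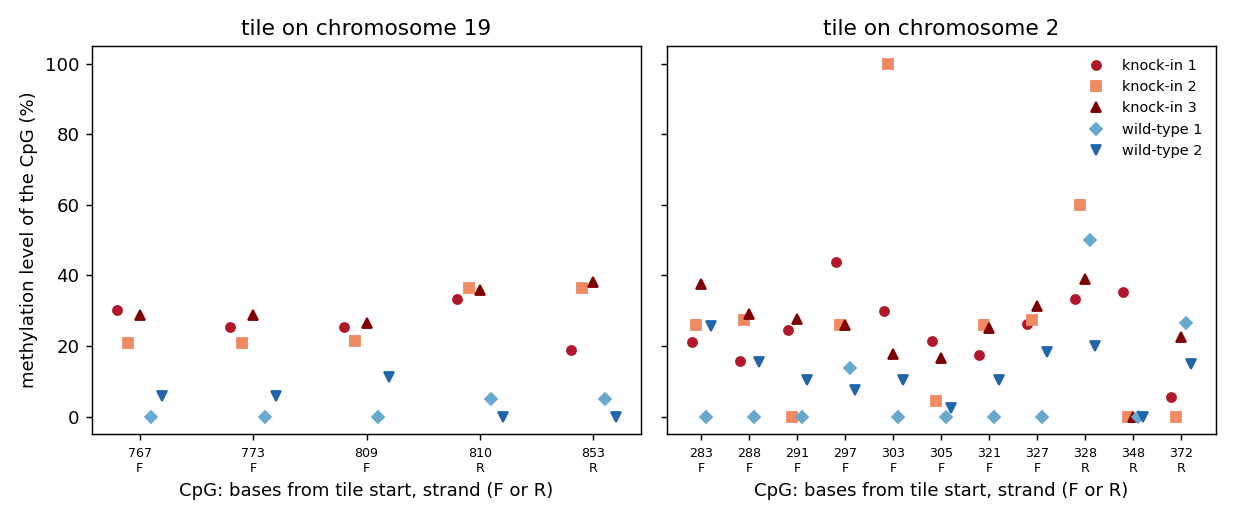
Methylation level (percent) of each CpG position in the tiles on chromosome 19 (left, 5 positions) and chromosome 2 (right, 11 positions), 1 point for each library, ordered by distance in bases from the tile's start with the strand as F or R. On the left no knock-in point is below a wild-type point, and on the right the points of the genotypes mix at several positions.

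Of the other 3 tiles of this kind, those on chromosome 11 rested more on 1 library. In chr7:29161000-29161999 levels were 33.6%, 40.7% and 18.3% against 8.28% and 6.00%, and the CpG at 29161660 was at 22.6% to 81.2% in all libraries. In chr11:53365000-53365999 they were 11.7%, 40.0% and 19.4% against 0% and 3.05%, and the difference of 22.2 points was 14.02 without knock-in replicate 2. In chr11:113426000-113426999 they were 43.9%, 23.7% and 16.0% against 7.95% and 7.69%, and the difference of 20.1 points was 12.04 without knock-in replicate 1. In this last tile the 2 CpGs near its end were at 0% in every library.

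Tiles with the knock-in lower were narrower in their separation. The widest was chr5:114000000-114000999, at 0%, 0% and 6.69% in the knock-in libraries against 12.6% and 14.3% in wild-type, a difference of -11.2 points with 5.96 points between the nearest libraries. A count of 0 allows up to 2.5% and 5.17% in knock-in replicates 1 and 2. In chr14:4752000-4752999, at 0%, 0% and 4.03% against 22.6% and 8.40%, the difference of -14.2 points was -7.06 without wild-type replicate 1, which had 31 reads. In chr4:135123000-135123999 levels were 5.98%, 8.89% and 7.64% against 13.5% and 14.3%, and the difference of -6.38 points was -4.04 with each position weighted equally and -10.4 at 10 reads per position.

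The remaining 2 depended more on how positions were weighted. In chr4:134654000-134654999 levels were 14.6%, 7.32% and 14.7% against 20% and 25%, a difference of -10.3 points, which was -0.642 with each position weighted equally. In chr6:30129000-30129999, with 12 positions, they were 10.7%, 4.27% and 10.98% against 16.8% and 15.1%, and the difference of -7.31 points became -2.04.

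The members of smallest p were of another kind: all had 0% in every library of 1 genotype. In chr1:135960000-135960999, at an unadjusted edgeR p of 0.00168, levels were 17.3%, 54.3% and 0.806% in the knock-in libraries. Both wild-type libraries were at 0%, which allows up to 1.71% and 1.42%. In knock-in replicate 2 the forward CpGs of this tile were at 0% and the reverse CpGs at 70.6% to 100%, from 16 and 17 reads. Without that library the difference of 24.1 points was 9.06 points. The next 4 with knock-in higher, on chromosomes 16, 15 and 17, had differences of 6.74 to 10.9 points. These too shrank without 1 library, to 3.81 points at chr15:66332000-66332999 without knock-in replicate 1. Without knock-in replicate 2 they were 5.10 at chr16:21787000-21787999, 5.15 at chr17:35109000-35109999 and 7.03 at chr15:85354000-85354999.

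With the knock-in lower, the smallest p belonged to chr8:64070000-64070999. Its knock-in libraries were all at 0%, which allows up to 1.02%, 4.55% and 0.4%, and the wild-type libraries were at 2.38% and 3.03%. Each of these 2 levels was 4 methylated reads over 6 positions. The other 4, on chromosomes 11 and 6, also had every knock-in library at 0% and differed by -2.07 to -7.44 points. In all of these, at chr11:114650000-114650999, chr11:88029000-88029999, chr6:49318000-49318999 and chr11:69761000-69761999, the difference shrank by more than 1.5 times without wild-type replicate 1, to -0.391, -0.662, -0.298 and -3.76 points.

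Among the tiles with knock-in higher by at least 10 points, those with most positions give the best view inside a tile. In chr1:173217000-173217999 the difference of 13.4 points was 7.14 points without knock-in replicate 2, in which the 4 further CpGs were at 100%. In the other 4 libraries the methylated CpG was alone in being methylated, at 90.5% to 100% in both genotypes, so the 7.14 points came from its share of the reads. It held 64 of 303 reads in knock-in replicate 1 and 137 of 1068 in knock-in replicate 3, against 12 of 125 and 30 of 316 in wild-type. In chr11:57646000-57646999, with 11 positions, levels were 19.2%, 31.9% and 21.1% against 8.78% and 16.3%, and the difference of 11.5 points was 7.58 without knock-in replicate 2. In chr11:96960000-96960999, with 9 positions on both strands, they were 27.6%, 19.9% and 19.04% against 6.30% and 16.2%, and the difference of 10.9 points was 5.99 without wild-type replicate 1. The tiles on chromosomes 19 and 2 were unlike these in that no single library moved their difference by more than 1.5 times.

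Tiles of other classes differed in the same direction. Mean levels of the 10847 CpG-dense tiles under 20% were 1.08%, 1.09% and 0.865% in the knock-in libraries against 0.686% and 0.805% in wild-type, which differed by 0.266 points. The 1910 CpG-poor tiles beside dense tiles and under 20% differed by 0.499 points. Distal tiles of 20 to 80% differed by 5.66 points and those of 80% or more by 1.13 points. The members' 0.984 points lay between these. Whether the difference was particular to distal CpG-poor tiles was not tested.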

How the data were processed

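DNA methylation was measured in 5 libraries by extended reduced representation bisulfite sequencing. The submitters' processing notes name Bismark, CASAVA 1.7 and build mm9, with no version for Bismark. Per the file headers, the authors deposited for each CpG position the coverage, a count of reads, and the percent of reads with C and with T. Each file listed positions with a count of at least 10. Methylated and unmethylated reads were coverage times these percentages, and came out whole, within 0.005 percentage points, at 100% of positions. The percent of C and of T summed to 90.06 to 100 in the deposited files, and the rest was left out.

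The 5 files were merged on chromosome, base and strand, and positions grouped into 1 kb tiles; 280635 autosomal positions with at least 10 reads in all 5 libraries entered. Tile counts were tested with edgeR 4.0.16 (quasi-likelihood, with library terms and 3 residual degrees of freedom) over all 24319 tiles. Alternatives were limma 3.58.1 on arcsine levels with 0.375 reads added, the same after centring, and log2 ratios with 1 read added. Both tools were also run on simulated data, whose outcome is not given here and on which no result rests. R 4.3.3 and Python 3.11.15 were used. A count of 0 was given an upper limit of 3 counts.

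The tiles named are the 8 with most shared positions, the 5 of smallest p and the 5 of widest separation in each direction, 3 on either side of the limit, the 5 longest runs, the 5 with most reads and the 5 farthest from a dense tile. Others were chosen after their values were seen, as tiles high in 1 library and separated tiles with most positions. Members and lists were chosen with earlier results of these data known. Genes, motifs and sequences in mm9 were not analysed here, so the planned counts by gene list and motif were not made. Chromosome X was left out by the rule.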

Additional observations from a re-analysis of the deposited data

How the results depend on the processing

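No tile reached the adjusted threshold under any alternative run. The mean difference over members stayed above 0 in all, as it had to without 1 library because the groups did not overlap. It was 0.309 points with every library under 20%, 0.566 at a limit of 10%, 0.626 at 20 reads per position, 1.52 with fewer than 20 listed positions, and 0.689 to 1.28 when each library was left out in turn. The member count was 812 at 20 reads per position, 1533 with 5 or more shared positions and 1253 with fewer than 20 listed positions. Members separated by 10 points, higher and lower, numbered 10 and 1 at 20 reads (1.23% and 0.123% of 812 members). With 5 or more positions they numbered 21 and 1 (1.37% and 0.0652% of 1533). At a limit of 10% they were 19 and 2 (0.777% and 0.0818% of 2446). With every library under 20% they were 10 and 1 (0.415% and 0.0415% of 2410). Without 1 library they ranged from 49 to 118 (1.81% to 4.36% of members) and from 5 to 60 (0.185% to 2.22%). The shares of all tiles under these settings were not computed. The counts without 1 library come from fewer libraries. The settings of 5 or more positions, a limit of 10% and every library under 20% only take members away, so their counts could not rise. The part of fewer members in the lower counts at 20 reads was not tested. At unadjusted p under 0.05 edgeR's counts ranged from 13 to 35 higher and 13 to 37 lower without 1 knock-in library. They were 1 and 9 at 20 reads, and 32 and 7 at 10 reads per position. The shares of all tiles beside these counts were not computed. Neighbours that are members were kept in the mean level 1 tile away from a member. It was 8.61% over tiles with 3 shared positions, 13.2% with 1 or more and 22.5% by the own positions of knock-in replicate 3. The cause was not tested. None of 168 values computed for 23 named tiles reversed. For the values without 1 library this was fixed in advance, since the groups did not overlap in any of these tiles. The plain mean, every library under 20%, 10 reads and own-position flanks were chosen after seeing the data. No paired analysis was possible because the labels number no replicates, and the numbers used here only name libraries in order of deposit. With a median of 90 reads in its members at 0, wild-type replicate 1 could not tell levels of up to 3.33% from 0, and 3 against 2 libraries limit every tile.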

Other observations

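The rule kept chromosome X out. By the same rule 91 distal CpG-poor tiles on it would have been members, at mean levels of 1.91%, 24.3% and 1.06% in knock-in replicates 1, 2 and 3 and 22.5% and 1.18% in wild-type replicates 1 and 2. The medians were 0%, 21.2%, 0%, 23.4% and 0% in the same order, and 18 of the 91 were under 20% in all libraries. A single library of each genotype was thus high there. The 159 tiles with 30 or more listed positions on this chromosome showed the same libraries high, with means of 2.94%, 24.1%, 3.82%, 24.1% and 3.65%. The labels give no sex.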
